A study of Mus musculus with 96 samples.

Results

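The catecholamine genes are the 8 genes *Th*|tyrosine hydroxylase, *Ddc*|DOPA decarboxylase, *Gch1*|GTP cyclohydrolase 1, *Dbh*|dopamine beta-hydroxylase, *Slc18a2*|vesicular monoamine transporter VMAT2, *Slc6a3*|dopamine transporter DAT, *Maoa*|monoamine oxidase A and *Maob*|monoamine oxidase B. They were chosen by gene symbol and are 8 of the 38887 genes in the expression table. The neurons came from the lateral superior olive (LSO), an auditory brainstem nucleus, of C57BL/6J mice of both sexes at about postnatal day 11, with no transgene and no treatment in any group. Each was recorded in an acute slice, its cytoplasm was aspirated into the patch pipette, and each neuron gave 1 library. Principal neurons (pLSOs) project to higher auditory centers and fire with an Onset or a Sustained pattern. Lateral olivocochlear neurons (LOCs) project to the cochlea and fire with a Delayed pattern. By these firing labels, 41 Onset and 11 Sustained neurons (together 52 pLSOs), 28 LOCs and 8 negative controls (NC, a pipette that only touched the slice) were compared.

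Dopamine is made from tyrosine by successive enzymes. Tyrosine hydroxylase forms L-DOPA and needs tetrahydrobiopterin, whose synthesis starts with GTP cyclohydrolase 1, and DOPA decarboxylase then forms dopamine. Dopamine beta-hydroxylase turns dopamine into noradrenaline, VMAT2 fills vesicles with monoamines, DAT takes dopamine back up, and the monoamine oxidases break monoamines down. In the olivocochlear system, a subset of LOCs is known as dopaminergic, beside the acetylcholine and the peptides CGRP (*Calca*) and urocortin (*Ucn*) of these neurons.

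Values are TPM (transcripts scaled to a fixed sum per library), and detection means a value of at least 1 TPM. The number of detected genes per library ranged from 1333 to 6276 in pLSOs (median 2560.5), from 1175 to 4408 in LOCs (median 2394) and from 285 to 1271 in NCs (median 821). The depth in reads of each library is unknown, but the study reports several-fold fewer mapped reads in negative controls than in neurons. A value of 0 in a NC therefore says less than a 0 in a neuron. The labels name no animals. Each class thus counts as 1 sample, no test was made, and intervals are exact Clopper-Pearson 95% intervals that cover counting error only. A value of 0 is not proof of absence: *Tubb3*, which encodes a tubulin of neurons, was detected in 39 of 52 pLSOs and 19 of 28 LOCs, whereas *Actb* was detected in all 80 neurons. Fewer neurons with a transcript and fewer transcripts per neuron cannot be told apart where the transcript is near this limit. Class markers were read beside the firing labels. Libraries had been left out before, mostly because their label and their membership in the study's cluster means differ, which partly fixes this result. The summed TPM of the LOC list (*Calca*, *Ucn*, *Col4a3*, *Nxph1*, *Isl1*) ranged from 20 to 4761 in LOCs (median 1031) and from 0 to 58 in pLSOs (median 0). The pLSO list (*Spp1*, *Lpgat1*, *Tenm2*, *Igsf3*, *Kcnh7*) ranged from 14 to 1464 in pLSOs (median 517.5) and from 0 to 148 in LOCs (median 1). Both lists come from the study, which chose them on these libraries.

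The start regions of the genes that the results turn on are shown side by side because those of *Th*, found mostly in LOCs, and of *Slc18a2*, found in pLSOs, share a motif that those of *Gch1* and *Ddc* lack. The sequences are those of RefSeq on GRCm38.p6, from 250 bases before to 50 bases after the transcript start, 5′ to 3′ on the coding strand. Capitals mark TGACGTCA, the full cAMP response element, which reads the same on both strands and contains the shorter motif TGACG once on each strand. Of the 8 genes, 7 had an entry. The windows are *Th* (chr7:142899946-142900245, minus strand), *Slc18a2* (chr19:59260628-59260927, plus strand), *Gch1* (chr14:47189364-47189663, minus strand) and the 2 starts of *Ddc* (chr11:11890359-11890658 and chr11:11898095-11898394, minus strand).
Th: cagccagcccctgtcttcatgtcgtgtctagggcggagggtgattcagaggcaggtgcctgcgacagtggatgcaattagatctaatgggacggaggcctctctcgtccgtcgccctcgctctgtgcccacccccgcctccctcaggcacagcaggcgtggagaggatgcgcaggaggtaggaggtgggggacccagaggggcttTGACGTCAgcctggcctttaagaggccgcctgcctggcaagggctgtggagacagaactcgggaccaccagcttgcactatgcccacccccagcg
Slc18a2: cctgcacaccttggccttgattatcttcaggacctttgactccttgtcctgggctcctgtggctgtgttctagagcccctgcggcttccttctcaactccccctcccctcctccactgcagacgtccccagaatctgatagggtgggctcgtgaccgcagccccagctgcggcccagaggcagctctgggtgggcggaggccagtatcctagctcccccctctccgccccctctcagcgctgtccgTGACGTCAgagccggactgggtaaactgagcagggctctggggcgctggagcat
Gch1: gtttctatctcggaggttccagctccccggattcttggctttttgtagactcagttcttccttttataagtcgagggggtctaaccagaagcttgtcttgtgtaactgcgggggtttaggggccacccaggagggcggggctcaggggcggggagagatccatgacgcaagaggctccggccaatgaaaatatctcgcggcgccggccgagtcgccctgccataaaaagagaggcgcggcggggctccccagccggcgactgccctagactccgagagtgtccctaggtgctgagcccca
Ddc, first start: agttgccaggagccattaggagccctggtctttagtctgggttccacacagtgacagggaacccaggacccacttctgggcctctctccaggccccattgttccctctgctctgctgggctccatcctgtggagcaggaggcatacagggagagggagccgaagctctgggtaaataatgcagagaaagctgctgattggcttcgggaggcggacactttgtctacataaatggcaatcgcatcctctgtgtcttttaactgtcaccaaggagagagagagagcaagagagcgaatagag
Ddc, second start: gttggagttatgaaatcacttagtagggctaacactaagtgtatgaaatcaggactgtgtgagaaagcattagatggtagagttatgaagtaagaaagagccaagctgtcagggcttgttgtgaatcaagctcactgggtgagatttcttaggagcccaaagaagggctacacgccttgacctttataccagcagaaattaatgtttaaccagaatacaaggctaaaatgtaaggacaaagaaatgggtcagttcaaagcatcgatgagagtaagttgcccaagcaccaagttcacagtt

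TGACGTCA was found in the windows of *Th*, where its first base lies 45 bases before the start, and of *Slc18a2*, where it lies 4 bases before the start. It was not found in those of *Ddc*, *Gch1*, *Dbh*, *Maoa* and *Slc6a3*. Of 32851 promoter windows of the same length, 588 (1.79%) held TGACGTCA, and 6837 (20.8%) held TGACG on either strand. TGACG was found once in the windows of *Gch1*, *Dbh* and *Maoa*, on both strands within TGACGTCA in *Th* and *Slc18a2*, and in none of *Ddc* and *Slc6a3*, so 5 of 7 genes held it. These are matches of letters, and no binding was measured here.

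*Th* transcripts were detected in 7 of 28 LOCs (25%, interval 10.7 to 44.9%) and in 1 of 52 pLSOs (1.92%, interval 0.0487 to 10.3%). *Th* (ENSMUSG00000000214) lies on the minus strand of chr7:142892752-142931128 in GRCm38. The 7 LOCs held 80 TPM (cell_69), 97 TPM (cell_68), 1448 TPM (cell_86), 4182 TPM (cell_80), 9040 TPM (cell_75), 11015 TPM (cell_73) and 40038 TPM (cell_61). The single pLSO was the Onset neuron cell_31 with 18 TPM. The lowest *Th*-positive LOC was therefore above the highest pLSO, while the other 21 LOCs were listed at 0 like nearly all pLSOs. The mean was 2354 TPM ± 7866 (SD, n = 28) in LOCs and 0.346 TPM ± 2.50 (SD, n = 52) in pLSOs. Much of the LOC mean came from cell_61, without which it was 958 TPM. No Sustained neuron held *Th*, which for 0 of 11 allows a share of up to 27.3%, and none of 8 NCs did, which allows up to 37.5%.

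*Ddc*, which encodes the enzyme that forms dopamine from L-DOPA and also serotonin from its precursor, was detected in 9 of 28 LOCs (32.1%, interval 15.9 to 52.4%) and in 3 of 52 pLSOs (5.77%, interval 1.21 to 15.9%). *Ddc* (ENSMUSG00000020182) lies on the minus strand of chr11:11814101-11898144. The 9 LOCs held 5 TPM (cell_79), 7 TPM (cell_77), 36 TPM (cell_73), 226 TPM (cell_82), 470 TPM (cell_67), 1280 TPM (cell_72), 1386 TPM (cell_80), 1693 TPM (cell_86) and 1827 TPM (cell_66). The pLSOs were cell_21 with 4 TPM and cell_44 with 266 TPM, both Onset neurons, and the Sustained neuron cell_45 with 16 TPM. The positive neurons of both classes overlapped in level, and the 5 highest values were all from LOCs. The mean was 247.5 TPM ± 555 (SD, n = 28) in LOCs and 5.5 TPM ± 36.9 (SD, n = 52) in pLSOs, where it was 0.392 TPM without cell_44. *Ddc* was listed at 0 in all 8 NCs. The gene 1700042O10Rik overlaps *Ddc* on the opposite strand and was detected in 0 of 80 neurons.

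*Gch1*, the first gene of the tetrahydrobiopterin pathway, was detected in 5 of 28 LOCs (17.9%, interval 6.06 to 36.9%) and in 0 of 52 pLSOs, which allows a share of up to 5.77%. It (ENSMUSG00000037580) lies on the minus strand of chr14:47153895-47189413. The 5 LOCs held 7 TPM (cell_67), 17 TPM (cell_72), 22 TPM (cell_82), 28 TPM (cell_61) and 45 TPM (cell_75). Their values lay close together compared with those of *Th*, whose positive LOCs ranged from 80 to 40038 TPM. The mean was 4.25 TPM ± 10.8 (SD, n = 28) in LOCs, and 2.74 TPM without cell_75. *Gch1* was listed at 0 in all 8 NCs.

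The vesicular transporter was detected in pLSOs and in no LOC. *Slc18a2* (ENSMUSG00000025094, plus strand of chr19:59260896-59296012) was detected in 7 of 52 pLSOs (13.5%, interval 5.59 to 25.8%) and in 0 of 28 LOCs, which allows a share of up to 10.7%. The Onset neurons were cell_44 with 13 TPM, cell_11 with 35 TPM, cell_31 with 108 TPM, cell_10 with 129 TPM and cell_9 with 134 TPM. The Sustained neurons were cell_45 with 4 TPM and cell_48 with 207 TPM. Both firing patterns thus held the gene, in 5 of 41 Onset (12.2%, interval 4.08 to 26.2%) and 2 of 11 Sustained neurons (18.2%, interval 2.28 to 51.8%), and these intervals overlapped. The mean was 12.1 TPM ± 40.3 (SD, n = 52) in pLSOs, and *Slc18a2* was listed at 0 in all 8 NCs. The limit for LOCs lies inside the interval of pLSOs, so a lower share in LOCs was not detectable at this number of neurons.

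**Figure D1:**
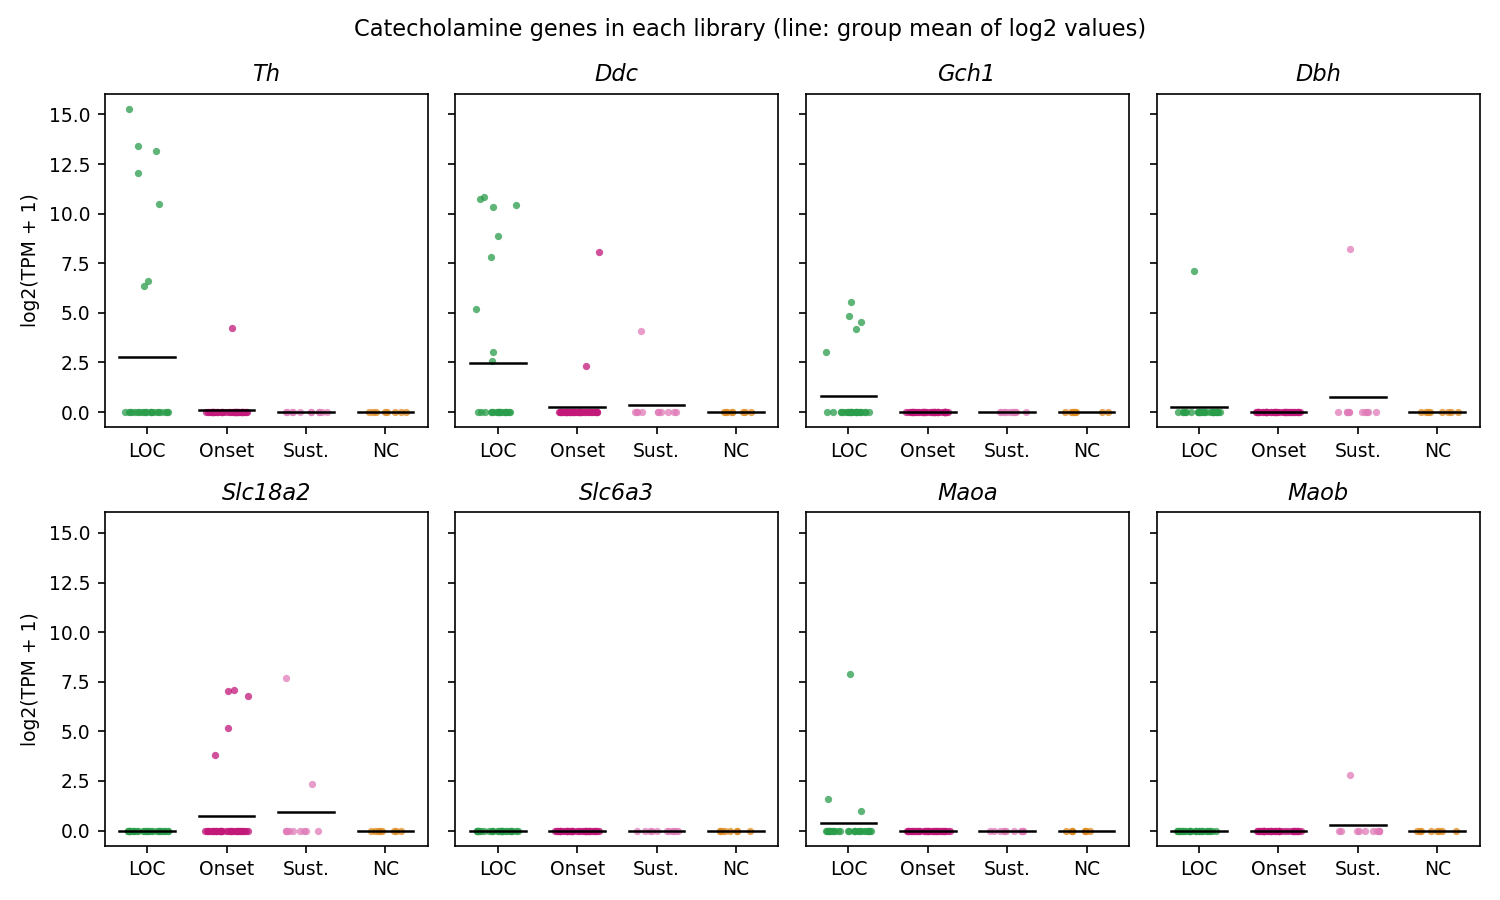
Catecholamine genes in each library. Each panel is 1 gene, each point is 1 library (28 LOCs, 41 Onset, 11 Sustained, abbreviated Sust., and 8 NCs, spread sideways at random), the y axis is log2(TPM + 1) and the line is the group mean of these values. *Th*, *Ddc* and *Gch1* stand above 0 mainly in LOCs, *Slc18a2* in pLSOs, and *Slc6a3* in no library.

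The remaining 4 genes were rare. *Dbh* (ENSMUSG00000000889, plus strand of chr2:27165233-27183200), the gene of noradrenaline synthesis, was held by the LOC cell_82 with 138 TPM and the Sustained neuron cell_56 with 292 TPM. *Maoa* (ENSMUSG00000025037, plus strand of chrX:16619698-16687818) was held by the LOCs cell_83 with 1 TPM, cell_68 with 2 TPM and cell_82 with 236 TPM. Its LOC mean of 8.54 TPM fell to 0.111 TPM without cell_82. *Maob* (ENSMUSG00000040147, minus strand of chrX:16709282-16817366) was held by the Sustained neuron cell_47 with 6 TPM. *Slc6a3* (ENSMUSG00000021609, plus strand of chr13:73536747-73578672), the gene of dopamine reuptake, was listed at 0 in all 80 neurons and 8 NCs. The limit is a share of up to 10.7% of LOCs and 5.77% of pLSOs. None of the 8 genes was detected in a NC. Sorted by the share of LOCs, the order was *Ddc*, *Th*, *Gch1*, *Maoa* and *Dbh*, with the other 3 at 0, and the intervals of neighbors in this order overlapped. In pLSOs the order was *Slc18a2* before *Ddc*, then *Th*, *Dbh* and *Maob* with 1 neuron each, again with overlapping intervals.

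**Figure D2:**
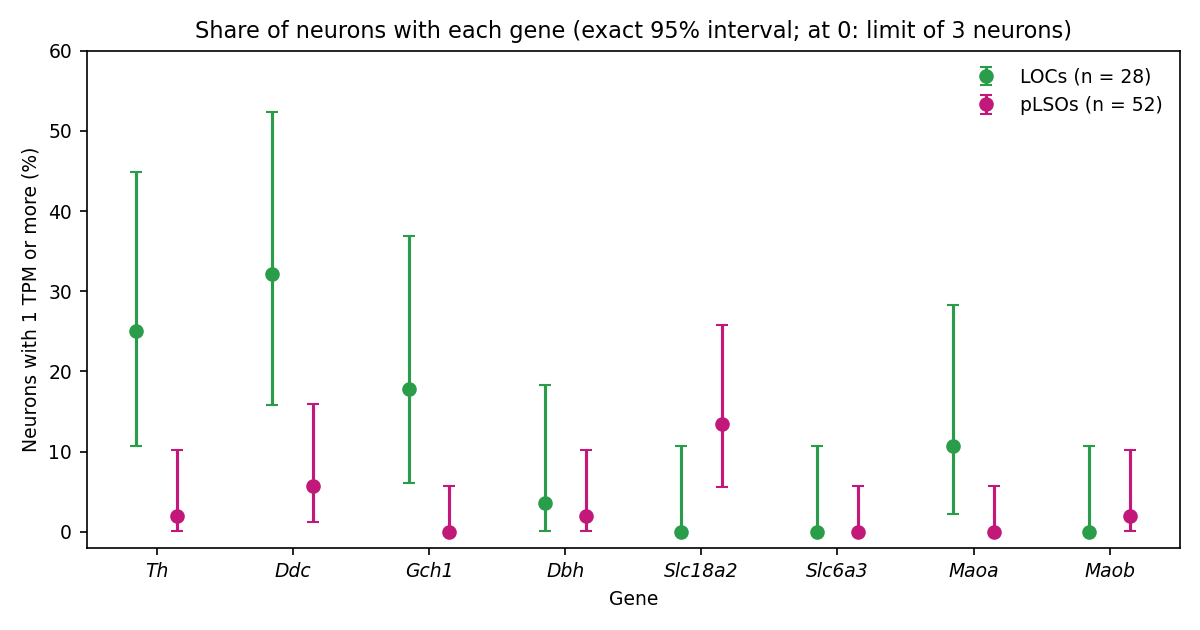
Share of neurons with each catecholamine gene. The y axis is the share of the 28 LOCs (green) or 52 pLSOs (magenta) with 1 TPM or more in percent, bars are exact 95% intervals, and for a share of 0 the bar ends at the limit of 3 neurons. The LOC and pLSO bars of *Th* do not overlap, and that of *Gch1* in LOCs starts at 6.06%, above the limit of 5.77% in pLSOs but below the 6.85% of the exact interval for 0 of 52. The bars of the other genes overlap.

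To set these genes beside the whole table, 10319 genes detected in at least 5% (4) of the 80 neurons were sorted by the ratio of mean TPM. The mean was at least 4-fold higher in LOCs for 10.0% of them (1032 genes) and at least 4-fold higher in pLSOs for 19.0% (1965 genes). Of the 8 catecholamine genes, 4 passed this filter. *Th*, *Ddc* and *Gch1* were among the genes higher in LOCs, with differences in mean log2(TPM + 1), LOC minus pLSO, of 2.68, 2.22 and 0.79. *Slc18a2* was among those higher in pLSOs, with a difference of -0.77. The median difference over all 10319 genes was -0.07. *Dbh*, *Maoa*, *Maob* and *Slc6a3* did not pass the filter. A gene as rare as *Gch1* or *Slc18a2* passed only through the class that held it, so these counts do not show that the list as a whole differed. Rules chosen after the values were seen give a narrower background. At least 5 LOCs and no pLSO, the pattern of *Gch1*, were found for 33 genes (0.320%), and a share of LOCs at least 4 times that of pLSOs, as for *Th*, *Ddc* and *Gch1*, for 344 genes (3.33%). At least 7 pLSOs and no LOC, the pattern of *Slc18a2*, were found for 153 genes (1.48%).

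Levels were compared between neurons for the same gene, not between genes, because the scale of the table changes with its row order. Genes stand in order of their Ensembl number. In rows 1 to 500, the median of mean TPM was 431 and the median of the lowest positive value was 11 TPM, whereas in rows 10001 to 10500 they were 2.46 and 1 TPM. Median exonic lengths in these blocks were 4201 and 5202 bp. *Th* is in row 37, where genes within 100 rows had a median mean of 697 TPM and a median lowest positive value of 21.5 TPM. *Gch1* is in row 10799, where these medians were 2.40 and 1 TPM. The higher TPM of *Th* than of *Gch1* is therefore not a measure of which transcript was more abundant. *Th* in the single pLSO, at 18 TPM, was below the median lowest value of its neighbors.

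Co-detection was then counted per neuron. *Th* or *Ddc* was detected in 13 of 28 LOCs (46.4%) and in 4 of 52 pLSOs (7.69%). Both were detected in 3 LOCs, namely cell_73 (11015 TPM *Th* and 36 TPM *Ddc*), cell_80 (4182 and 1386 TPM) and cell_86 (1448 and 1693 TPM). These are 42.9% of the 7 LOCs with *Th*, while *Ddc* was detected in 32.1% of all 28 LOCs. They are 33.3% of the 9 LOCs with *Ddc*, while *Th* was detected in 25% of all 28 LOCs. In most LOCs with either transcript the other was not detected, which is not proof that it was absent. Whether the overlap differed from that of independent detection was not tested. *Th* without *Ddc* was found in cell_61, cell_68, cell_69 and cell_75, among them the highest *Th* value. *Ddc* without *Th* was found in cell_66, cell_67, cell_72, cell_77, cell_79 and cell_82, among them the highest *Ddc* value. No pLSO held both.

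All 5 LOCs with *Gch1* also held *Th* or *Ddc*, and they are 38.5% of the 13 LOCs with either. With *Th*, *Gch1* was found in cell_61 (40038 TPM *Th* and 28 TPM *Gch1*) and cell_75 (9040 and 45 TPM). With *Ddc*, it was found in cell_67 (470 TPM *Ddc* and 7 TPM *Gch1*), cell_72 (1280 and 17 TPM) and cell_82 (226 and 22 TPM). No LOC held *Th*, *Ddc* and *Gch1* together, and since *Slc18a2* was listed at 0 in all LOCs, no neuron held both synthesis steps and the vesicular transporter. Over the 28 LOCs, Pearson's r of log2(TPM + 1) was 0.20 for *Th* and *Ddc*, 0.35 for *Th* and *Gch1* and 0.26 for *Ddc* and *Gch1*. These points share library depth and are mostly 0 for both genes, so the values describe these neurons and no more.

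Counted over all 8 genes, 14 LOCs held none, 5 held 1, 8 held 2 and 1 held 4. The neuron with 4 was cell_82 (*Ddc*, *Gch1*, *Dbh* and *Maoa*), which had the most detected genes of any LOC (4408) and 2410 TPM of *Mbp*, which encodes myelin basic protein. Over 4 oligodendrocyte genes (*Mbp*, *Mog*, *Mag*, *Cldn11*), the summed TPM was 1 to 2604 in LOCs (median 127), 0 to 4551 in pLSOs (median 70.5) and 54 to 3636 in NCs (median 786), and its part in the values of cell_82 was not tested. Without cell_82, *Ddc* was found in 8 and *Gch1* in 4 of 27 LOCs, *Maoa* in 2, and *Dbh* in 0 of 27. Among pLSOs, 42 held none of the genes, 7 held 1 and 3 held 2. The pLSOs with 2 were cell_31 (18 TPM *Th* and 108 TPM *Slc18a2*), cell_44 (266 TPM *Ddc* and 13 TPM *Slc18a2*) and cell_45 (16 TPM *Ddc* and 4 TPM *Slc18a2*). Thus 3 of 4 pLSOs with *Th* or *Ddc* held *Slc18a2* (75%), and 3 of 7 pLSOs with *Slc18a2* held *Th* or *Ddc* (42.9%). Of these 3, cell_45 had the most detected genes of any neuron (6276), and the microglial gene *Csf1r* was at 973 TPM in it and at 1625 TPM in cell_44. Over the 8 pLSOs with *Th*, *Ddc* or *Slc18a2*, the summed TPM of 4 microglial genes had a median of 12.5, with any of them in 5 of 8, against a median of 0 and 23 of 52 in all pLSOs. The highest sum, 1699 TPM, was that of cell_44. In the 13 LOCs with *Th* or *Ddc* the median was 9, with any in 10 of 13, against 2 and 16 of 28 in all LOCs. In NCs the median was 0, with any in 3 of 8 and a highest sum of 441 TPM. For 6 astrocyte genes the median was 38 in the 8 pLSOs against 35.5 in all pLSOs, and 41 in the 13 LOCs against 42 in all LOCs. For the 4 oligodendrocyte genes it was 129.5 against 70.5 in pLSOs and 111 against 127 in LOCs. The part of these glial transcripts in the results was not tested.

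Detected genes per library moved with these counts. The 14 LOCs with at least 1 of the genes had 2012 to 4408 detected genes (median 2654), and the 10 such pLSOs had 2357 to 6276 (median 3170.5). Among neurons with at least 2000 detected genes, *Th* was held by 7 of 22 LOCs (31.8%) and 1 of 44 pLSOs (2.27%). In the same neurons, *Ddc* was held by 9 of 22 LOCs (40.9%) and 3 of 44 pLSOs (6.82%), and *Slc18a2* by 0 of 22 LOCs and 7 of 44 pLSOs (15.9%).

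The 13 LOCs with *Th* or *Ddc* had the peptides of their class. All 13 held *Calca* and *Ucn*, which were found in 26 and 23 of 28 LOCs. *Slc5a7*, the choline transporter, was found in 10 of 13 (15 of 28 LOCs), but *Chat*, the enzyme of acetylcholine synthesis, in 3 of 13 (5 of 28 LOCs). These 3 were cell_66 (169 TPM *Chat*), cell_67 (333 TPM) and cell_86 (136 TPM), all with *Ddc*, and only cell_86 also held *Th*. *Gad2*, an enzyme of GABA synthesis, was found in 9 of 13 (20 of 28 LOCs). *Slc17a6*, the vesicular glutamate transporter vGLUT2, was found in 4 of 13 (7 of 28 LOCs), in these 4 at only 1 to 3 TPM. The glycine transporter gene *Slc6a5* was found in 0 of 13 (6 of 28 LOCs, 21.4%, at 1 to 14 TPM). The limit for 0 of 13 lies above this share of all LOCs, so a lower share was not detectable at this number of neurons. In the NCs, *Calca* was detected in 5 of 8 (highest 315 TPM), *Ucn* in 2 of 8, *Gad2* in 3 of 8, and *Chat* and *Slc5a7* in none. *Slc17a6* was detected in 3 of 8 NCs (highest 28 TPM) and *Slc6a5* in 1 of 8 (1 TPM). The 7 pLSOs with *Slc18a2* mostly held *Slc17a6* (6 of 7, against 36 of all 52 pLSOs), fewer held *Gad2* (3 of 7, 13 of 52), and none held *Calca*, *Ucn* or *Chat*.

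**Figure D3:**
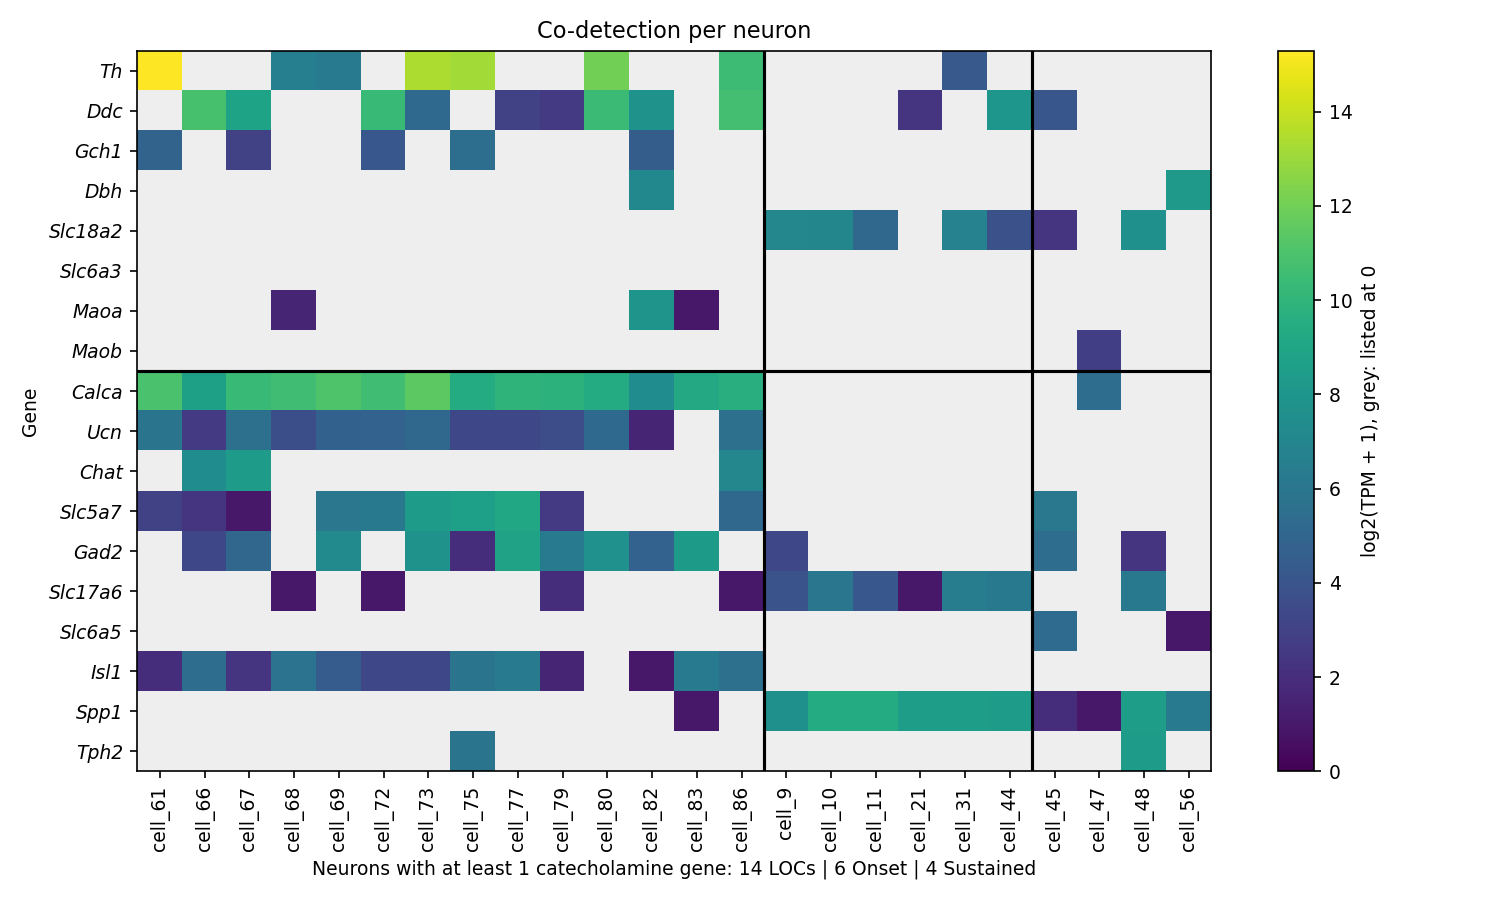
Co-detection per neuron. Columns are the 24 neurons with at least 1 catecholamine gene (14 LOCs, 6 Onset and 4 Sustained neurons), rows are the 8 genes and, under the line, genes of other transmitters and markers, and color is log2(TPM + 1), with grey for 0. *Th* and *Ddc* share 3 columns, *Gch1* is found only below *Th* or *Ddc*, and *Slc18a2* fills columns of pLSOs alone.

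Other monoamine neurons lie in the brainstem, so their markers were read in the same neurons. The noradrenergic list (*Dbh*, *Slc6a2*, *Phox2a*) summed to 0 to 138 TPM in the 13 LOCs (median 0), with any of it in 1 of 13, namely *Dbh* in cell_82. *Slc6a2*, the noradrenaline transporter, and *Phox2a* were listed at 0 in all 13. The serotonergic list (*Tph2*, *Slc6a4*, *Fev*) was found in 2 of 13 LOCs, with *Tph2* at 57 TPM in cell_75 and *Slc6a4* at 1 TPM in cell_77. Of the 8 pLSOs with *Th*, *Ddc* or *Slc18a2*, 0 held a noradrenergic and 1 held a serotonergic gene: the Sustained neuron cell_48, with the highest *Slc18a2* value (207 TPM), had 344 TPM of *Tph2*, which encodes the hydroxylase of serotonin synthesis. Both lists were at 0 in all 8 NCs.

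Of 39 other genes of monoamine pathways, 14 were listed at 0 in all 80 neurons and 12 passed the filter. Of these 12, 4 had a mean at least 4-fold higher in LOCs (*Slc18a1*, *Aldh1a1*, *Gata2*, *Gata3*), where 10.0% of all genes tested did, and 3 in pLSOs (*Spr*, *Pcbd2*, *Drd4*), where 19.0% did. The call of *Slc18a1* rests on 1 LOC. That of *Aldh1a1* is close to the 4-fold limit, with 3 positive LOCs (highest 33 TPM, median 30 TPM). Without the highest LOC, the *Slc18a1* mean fell from 5.79 to 0.185 TPM (0.135 TPM in pLSOs) and the *Aldh1a1* mean from 2.29 to 1.15 TPM (0.558 TPM in pLSOs), which ends both calls. *Gata2*, *Spr* and *Drd4* were held by 1 class alone and passed the filter only through it, so their calls followed from passing. These counts therefore do not show that the list as a whole differed. The median difference of the 12 genes was -0.18 (log2, LOC minus pLSO), against -0.07 over all genes tested. The genes at 0 include the hydroxylase gene *Tph1*, the adrenaline enzyme *Pnmt*, the receptors *Drd2*, *Drd3*, *Adra2b* and *Adra2c*, and 8 transcription factors (*Pitx3*, *Lmx1a*, *En1*, *En2*, *Foxa1*, *Foxa2*, *Hand2*, *Insm1*). Of the same list of transcription factors, *Nr4a2* was detected in 1 of 28 LOCs (18 TPM) and 2 of 52 pLSOs (highest 64 TPM). *Lmx1b* was detected in 0 of 28 LOCs and 1 of 52 pLSOs.

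The other cofactor genes varied in direction. *Pts* and *Spr* encode the steps after GTP cyclohydrolase 1, and *Pts* was detected in 6 of 28 LOCs and 17 of 52 pLSOs, while *Spr* was detected in 0 of 28 LOCs and 5 of 52 pLSOs. *Qdpr*, which regenerates tetrahydrobiopterin, was detected in 8 of 28 LOCs (mean 182 TPM) and 28 of 52 pLSOs (mean 550 TPM). *Pcbd2* was detected in 1 of 28 LOCs and 8 of 52 pLSOs, and *Pcbd1* in 1 of 28 and 3 of 52. *Gchfr*, the feedback regulator of GTP cyclohydrolase 1, was detected in 2 of 28 LOCs (mean 1.36 TPM) and 1 of 52 pLSOs (mean 0.0385 TPM). *Pdxk*, the kinase of vitamin B6, whose active form is the cofactor of DOPA decarboxylase, was detected in 3 of 28 LOCs and 2 of 52 pLSOs. In NCs, *Pts* was detected in 1 of 8 at 1011 TPM, where the highest neuron had 264 TPM. *Pcbd2* was detected in 1 of 8 NCs at 2287 TPM, where the highest neuron had 177 TPM. The part of slice background in the values of both genes was not tested.

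Of 3 other genes of monoamine breakdown, *Aldh2* was detected in 0 of 28 LOCs and 1 of 52 pLSOs. *Akr1b3* was detected in 4 of 28 LOCs and 13 of 52 pLSOs, and *Aldh1a1* in 3 of 28 and 3 of 52. Of other transporters, *Slc29a4* was detected in 3 of 28 LOCs and 0 of 52 pLSOs.

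Among transcription factors, *Gata3* was detected in 22 of 28 LOCs (78.6%, mean 780 TPM) and 7 of 52 pLSOs (13.5%, mean 1.81 TPM). *Gata2* was detected in 5 of 28 LOCs (mean 172 TPM, and 46.5 TPM without its highest neuron) and 0 of 52 pLSOs. Of the 13 LOCs with *Th* or *Ddc*, *Gata3* was found in 11 and *Gata2* in 3, all of the latter with *Ddc*.

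**Figure D4:**
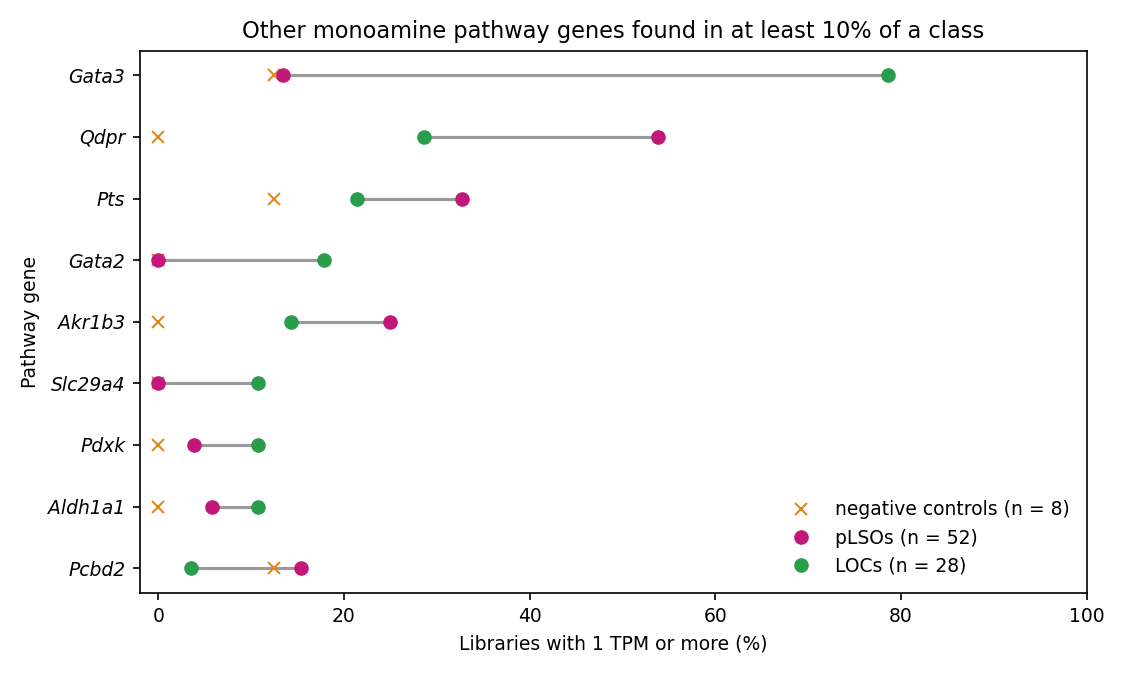
Other monoamine pathway genes detected in at least 10% of LOCs or of pLSOs. The x axis is the share of libraries with 1 TPM or more in percent, for 28 LOCs (green), 52 pLSOs (magenta) and 8 NCs (orange crosses), and a grey line joins the classes. *Gata3* and *Gata2* lie to the right in LOCs, and *Qdpr*, *Pts*, *Akr1b3* and *Pcbd2* in pLSOs.

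The genes whose levels were most like each synthesis gene over the 28 LOCs were taken from 5365 genes detected in at least 5 LOCs. For *Th* they were *Ptges2*, *Pla2g7*, *Armc8*, *Srgap1* and *Mrpl13* (Pearson's r of log2(TPM + 1) 0.73, 0.72, 0.69, 0.68 and 0.67). *Mrpl13* was found in all 7 LOCs with *Th* and in 4 others. For *Ddc* they were *Pex3*, *Arl5b*, *Scmh1*, *Tmem250-ps* and *Lbr* (r 0.83, 0.77, 0.74, 0.68 and 0.68), with *Scmh1* in 7 LOCs, all of them with *Ddc*. For *Gch1* they were *Wasl*, *Smap1*, *Bend6*, *Rab10* and *Flad1* (r 0.92, 0.80, 0.77, 0.77 and 0.75), with *Wasl* in all 5 LOCs with *Gch1* and in 1 other. None of these 15 genes is of the catecholamine pathway, and with 5 to 9 positive neurons among many sparse genes the values are descriptions.

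The electrical values of the neurons were copied from the labels. The input resistance of all labelled LOCs was 58.8 to 903.9 MΩ (median 484.5 MΩ, n = 29) and that of pLSOs 16.7 to 147.4 MΩ (median 44.3 MΩ, n = 56). The lowest value of the LOCs belonged to cell_79 (5 TPM *Ddc*) and the highest to cell_75 (9040 TPM *Th*). The 3 LOCs with both transcripts had 562.4 MΩ (cell_73), 797.4 MΩ (cell_80) and 872.1 MΩ (cell_86), each above the LOC median. Their rheobase was 0, 50 and 50 pA, and that of all 13 LOCs with *Th* or *Ddc* was 0 or 50 pA. LOCs ranged from 0 to 300 pA (median 0 pA) and pLSOs from 150 to 850 pA (median 450 pA). A single LOC had 300 pA, and every other labelled LOC also had 0 or 50 pA. Of the pLSOs with *Slc18a2*, the Onset neurons cell_9, cell_10, cell_11 and cell_44 had 70.1, 31.2, 44.6 and 24.2 MΩ, and the Sustained neurons cell_45 and cell_48 had 50.3 and 37 MΩ. All 6 lay within the range of pLSOs, and all but cell_9 lay below the lowest LOC. No value is given for cell_31, because the names of this neuron and of another Onset neuron appear to be exchanged between the deposited table and a table of the study.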

How the data were processed

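Patch-seq libraries of 86 LSO neurons and 10 negative controls were analysed, 1 library per neuron. Smart-seq2 libraries were made and sequenced by the authors, who trimmed reads (Trim Galore 0.4.2), aligned them to mm10 (STAR), marked duplicates (Picard 1.115) and summarised them to Gencode genes (featureCounts). The authors deposited TPM rounded to whole numbers, treated here as a score. Library sums lay between 999773 and 1000026, and the authors gave no counts, so the depth in reads of each library is unknown.

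Groups followed the firing labels. Without 8 libraries (cell_36, cell_39, cell_40, cell_54, cell_78, cell_85, NC5, NC6), 80 neurons and 8 negative controls remained. For 7 of the 8 the label and the membership in the study's cluster means differ, and for cell_39 the study prints other values. The choice thus depends in part on the study's clustering. The study itself reports a complete match of cluster and firing pattern. The markers of cell_78 and cell_85 also went with their Delayed label (827 and 692 TPM of *Calca*, 1 and 3 TPM of *Spp1*). The members and gene lists were chosen with earlier results of these data known. Gene names and positions are from Gencode vM21 (GRCm38), which names 37570 of the 38887 genes, and promoter sequences are from RefSeq (GRCm38.p6). The study used another Gencode release.

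Detection was 1 TPM or more. Shares have exact 95% intervals, and 0 of n has the limit of 3 over n. Ratios of means were called at 4-fold among genes that at least 5% of neurons held, and no ratio is printed for a gene held by 3 or fewer neurons of a class. Log values are log2(TPM + 1), which understates differences of low genes. As named genes, all 8 members are given, and 39 other pathway genes are counted and named where detected in at least 10% of a class or at 0 in all neurons. Genes called at 4-fold and some rarer genes were named too, after their values were seen. Of 10 transmitter genes, 9 were analysed, and some genes of the pathway and marker lists are not reported here. The 5 genes most like a member were ranked by Pearson's r over LOCs. Electrophysiological values were copied from the labels of all 86 neurons. Scripts were tested on simulated data. Alternatives were 10 TPM, all labelled libraries, at least 2000 detected genes, geometric means, the highest neuron left out, libraries rescaled to the rows after row 5000, no filter and a fold of 2. Tables were handled with pandas 2.3.3 and NumPy 2.4.6 in Python 3.11.15, intervals computed with SciPy 1.17.1 and figures drawn with matplotlib 3.10.9.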

Additional observations from a re-analysis of the deposited data

Results flagged for a closer look

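Among the libraries outside the comparisons, a single one held catecholamine genes, and it was noted because these values lie in data that the shares do not use. The library cell_85, labelled as a Delayed neuron (LOC), held 8378 TPM of *Th* and 44 TPM of *Gch1*, where all 8 negative controls of the comparison were at 0 for both. It resembled the LOC cell_75, which held 9040 TPM of *Th* and 45 TPM of *Gch1*. Over all genes, Pearson's r of log2(TPM + 1) between these libraries was 0.958, and 77.8% of the genes detected in either were detected in both. The next closest pair of libraries, cell_45 and cell_82, had r = 0.633. With cell_85 left out, the pair was counted once. With all labelled libraries, *Th* was found in 8 of 30 and *Gch1* in 6 of 30 LOCs. The labels give the pair different electrical values, with an input resistance of 903.9 MΩ for cell_75 and 419.2 MΩ for cell_85, and whether both libraries came from the same material was not tested.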

How the results depend on the processing

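Of 150 alternative values, 144 were labelled the same by a rule for each kind of value and 6 moved. The values are shares and means of single classes and counts, so a change of direction could not occur. Shares had to stay within their interval, means within the SD over neurons, and counts of neurons within a set factor. For every detected catecholamine gene the SD exceeded the mean, so a lower mean could not be labelled as moved. The geometric mean of *Th* in LOCs, 5.78 TPM against a mean of 2354 TPM, was thus labelled the same. Genes at 0 throughout also count as the same. The share of pLSOs with *Maob* was 0 (0 of 52) at a threshold of 10 TPM. The share of LOCs with *Dbh* was 0 (0 of 27) without cell_82, and leaving out cell_82 or cell_45 was chosen after seeing the data. The genes at least 4-fold higher in LOCs numbered 2523 with no filter and 2259 at a fold of 2, against 1032. Those higher in pLSOs numbered 5081 and 3189, against 1965. Rescaling the libraries shifted the classes against each other by -0.04 on the log2 scale. No paired analysis was possible because the numbers in the library names only name libraries and no test was made. The number of neurons limits the shares, as 1 Sustained neuron is 9.09% of its group, and differences between Onset and Sustained neurons in these genes were not detectable.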

Other observations

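The 8 libraries left out of the comparisons were read for the same genes. Apart from cell_85, none of them held any of the 8 catecholamine genes. Of these, cell_54, labelled as a Sustained neuron, held 1887 TPM of *Calca* and 28 TPM of *Ucn* and 0 TPM of *Spp1*, and cell_78, labelled as a Delayed neuron, held 827 TPM of *Calca* and 12 TPM of *Ucn*. The libraries NC5 and NC6, labelled as negative controls, held 782 and 75 TPM of the pLSO marker *Spp1* and had 1247 and 3104 detected genes.

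The *Drd* and *Adra2* receptor genes of the list were rare in both classes, and receptors for monoamines outside these families were not read. Of 8 receptor genes, *Drd4* was the only one to pass the filter, with 4 of 52 pLSOs and 0 of 28 LOCs. *Drd1* was detected in 2 of 28 LOCs and 1 of 52 pLSOs, *Adra2a* in 0 of 28 LOCs and 2 of 52 pLSOs, and *Drd5* in 0 of 28 LOCs and 1 of 52 pLSOs. All 8 negative controls were at 0 for these 4 genes. These receptors were chosen for mention after their values were seen.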
